A study of Mus musculus with 2 samples.

Results

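The cells described here are the Cd79a-positive B-lineage cells of mouse bone marrow, which were proposed as pro-B and pre-B cells. A barcode was a member when it passed the cell filters (at least 1000 UMIs, at least 500 genes, at most 10% mitochondrial UMIs) and held at least 2 UMIs of Cd79a and at least 3 UMIs of Vpreb1, Vpreb3, Igll1, Ebf1 and Cd79b together. Barcodes with 2 or more UMIs of Siglech, a gene of plasmacytoid dendritic cells, were left out, as were those with 10 or more UMIs of the plasma cell gene Jchain per 10000. A UMI, or unique molecular identifier, counts 1 captured transcript. The rule found 146 cells among 23776 kept barcodes, 16 of 12537 in the wild-type (WT) library and 130 of 11239 in the Nat10 conditional knockout (cKO) library.

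Both libraries came from C57BL/6 bone marrow depleted of mature cells with antibodies to lineage markers, and were read from the 3′ ends of transcripts in droplets. The groups differed, as far as the labels say, only in genotype, WT or Nat10 cKO. Nat10 encodes the enzyme that writes N4-acetylcytidine into RNA, and the study asked about its part in blood stem cells and their differentiation. The sources used here name neither the Cre driver nor the time of deletion nor the age of the mice. The series text speaks of 5 mice, but no label ties a cell to a mouse, so each genotype is 1 sample. No difference below therefore has a replicate check, no test between genotypes was made, and every 95% interval covers counting error alone.

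B cells form in the marrow through stages named for the state of their immunoglobulin genes. In pro-B cells the recombinase Rag1 and Rag2 joins heavy-chain segments, while Dntt, the terminal transferase, adds bases at the joints. A finished heavy chain, encoded with the constant region of Ighm, pairs with the surrogate light chain made from Igll1 and a Vpreb protein, and with the signalling partners encoded by Cd79a and Cd79b forms the pre-B cell receptor (pre-BCR). Its signal drives large pre-B cells to divide, after which the surrogate light chain genes are shut off and small pre-B cells recombine the kappa (Igkc) or lambda (Iglc) light chain genes. Immature B cells then carry a complete receptor and begin to express Ms4a1, which encodes CD20, and the genes of MHC class II presentation.

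The B lineage as such was borne out by a gene that the rule did not use. Pax5, the factor that holds cells in the B lineage, had a UMI in 16 of 16 WT and in 127 of 130 cKO cells (97.7%, exact Clopper-Pearson interval 93.4 to 99.5). In haemoglobin-rich barcodes, which should lack the gene, 0.192% of WT and 0.0959% of cKO barcodes had such a UMI, at median depths of 23936.5 and 18953 UMIs. Thinned to 2000 UMIs, 12 of 16 WT and 113 of 127 cKO cells (89.0%) still held a UMI of Pax5.

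The proposed stages covered the cKO cells only in part, since marks of the pro-B and large pre-B stages were rare there. In the cKO library 121 of 130 cells (93.1%) had no UMI of Vpreb1, Vpreb2 or Igll1, and 5 cells (3.85%, 1.26 to 8.75) had at least 2 UMIs of Dntt. Kit, which marks early pro-B cells, had a UMI in 3 of 130. Rag1 or Rag2, which small pre-B cells also express, had a UMI in 56 of 130 (43.1%, 34.4 to 52.0). Most cKO cells held Igkc, with at least 10 UMIs per 10000 in 87 of 130 (66.9%, 58.1 to 74.9), and 42 of 130 (32.3%, 24.4 to 41.1) held at least 2 UMIs of Ms4a1. In the WT library, on 16 cells, these early marks were not rare. Vpreb1, Vpreb2 or Igll1 had a UMI in 8 of 16, Dntt at least 2 UMIs in 4, and Rag1 or Rag2 a UMI in 9. Igkc reached 10 UMIs per 10000 in 4 WT cells, and Ms4a1 had at least 2 UMIs in 3. Since Ms4a1 and Igkc reach beyond the pre-B stage, the cells of both libraries are called Cd79a-positive cells below.

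The count difference was the main contrast between the libraries. Members made up 0.128% (0.0730 to 0.207) of kept WT barcodes and 1.16% (0.967 to 1.37) of kept cKO barcodes. The cKO share was 9.06 times the WT share, with an exact conditional interval of 5.38 to 16.3. Rules for 5 other mature cell types gave share ratios from 0.151 to 1.23. T cells, with 2 or more UMIs of the Cd3 genes, numbered 244 and 186 (ratio 0.850, 0.699 to 1.03), and plasma cells, with 10 or more Jchain UMIs per 10000, numbered 161 and 125 (0.866, 0.680 to 1.1). Haemoglobin-rich barcodes numbered 1562 and 1043 (0.745), and barcodes rich in secondary granule genes 19 and 21 (1.23). Macrophages, with 5 or more UMIs of C1qa, C1qb and C1qc, numbered 140 and 19 (0.151, 0.0885 to 0.245), a wide difference in the opposite direction. How well B-lineage cells were depleted and how many the marrow held cannot be told apart in either library.

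Barcodes chosen by Il7r, Flt3 and Dntt had a share ratio whose interval holds 1, and plasmacytoid dendritic cells had a ratio below 1. Barcodes with at least 3 UMIs of Il7r, Flt3 and Dntt together and outside the B rule numbered 1139 (WT) and 993 (cKO), a share ratio of 0.973 (0.892 to 1.06). Plasmacytoid dendritic cells, taken at 2 or more UMIs of Siglech, numbered 162 and 33, a ratio of 0.227 (0.151 to 0.332). The plot of the share ratio under each selection gives the ratio of Cd79a-positive cells under 15 other selections, where it ran from 4.30 to 14.0. The lowest came without the Siglech and Jchain limits, which admitted plasma cells and gave 48 WT and 185 cKO barcodes.

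**Figure D1:**
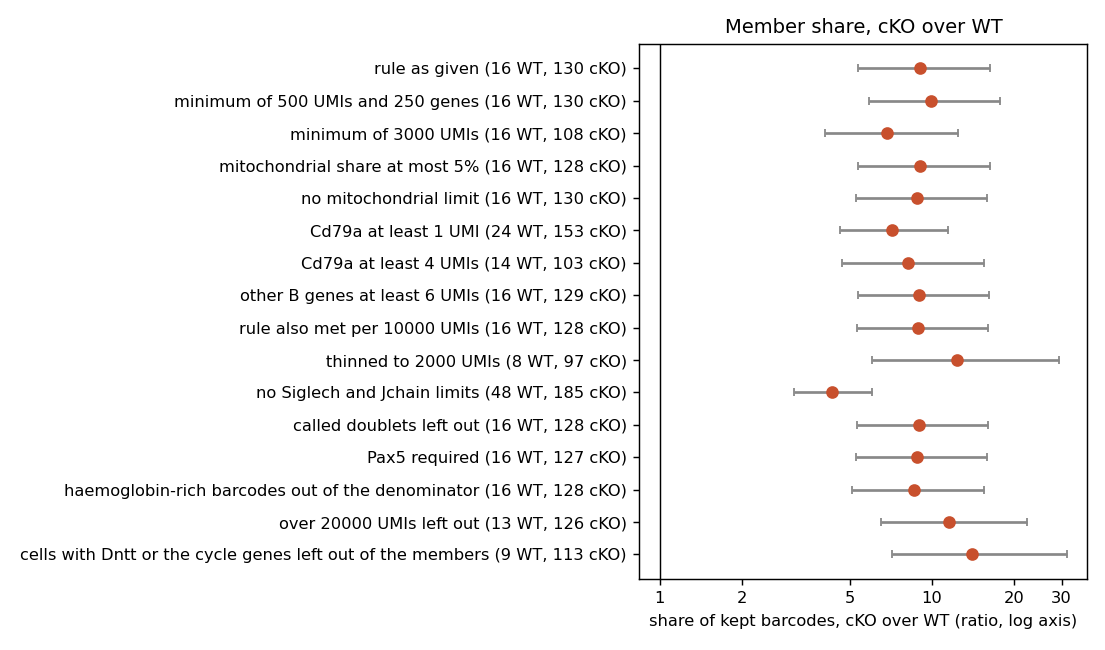
The ratio of the share of kept barcodes, cKO over WT, is plotted on a log axis for the rule and for 15 other selections, with the number of members in each library. Points are ratios and bars are exact 95% counting intervals. Every interval lies above 1, and the ratio without the Siglech and Jchain limits, 4.30, is the lowest.

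In the cKO library 10 members had exactly 2 UMIs of Cd79a, 9 of them with a UMI of Pax5. Just outside, 23 cKO barcodes had 1 UMI of Cd79a and enough of the other genes, 9 of them with Pax5. The WT library had 8 such barcodes, 0 of them with Pax5. Barcodes with enough Cd79a but 0 to 2 UMIs of the other genes numbered 8 and 10, 0 with Pax5 in either library. Barcodes with 0 UMIs of Cd79a and enough of the other genes were many, at 514 (WT) and 581 (cKO), of which 4 and 15 held Pax5. The rule thus left out some barcodes with Pax5 in both libraries. The Jchain limit removed 32 WT and 54 cKO barcodes and the Siglech limit 0 and 1. Among barcodes outside the depth and mitochondrial filters, 0 of 3311 WT and 0 of 2240 cKO met the gene rule, which allows shares of up to 0.0906% and 0.134%.

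The cKO members were shallow. Their median was 3734 UMIs and 1917.5 genes, from 1189 to 62641 UMIs, and 98 of 130 had under 5000 UMIs. The 16 WT members had a median of 8072.5 UMIs and 3161 genes, from 3411 to 26367 UMIs. All kept barcodes had medians of 18600 (WT) and 21119 UMIs (cKO), so members of both libraries lay below their surroundings. In all, the members held 180605 WT and 753053 cKO UMIs. Scrublet, a doublet caller, marked 0 WT and 2 cKO members, against 4.72% and 4.84% of all kept barcodes. The libraries shared 67 barcodes, 0 of them members.

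Nat10 itself could not be checked in these cells. Levels are given in CPM, the count per 1e6 UMIs of the members' sum. Nat10 had 2 UMIs in the WT members (11.1 CPM, exact Poisson interval 1.34 to 40) and 16 in the cKO members (21.2 CPM, 12.1 to 34.5). The intervals overlap, and the sources used here do not say where the deleted part lies relative to the 3′ tags. In the other kept barcodes Nat10 stood at 47.1 CPM (WT) and 38.6 CPM (cKO). The label cKO is thus used for the library, without evidence of deletion in these cells.

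The genes of the pre-BCR split into those present in nearly all cells and those found in fewer. Cd79a, used by the rule, had a median of 8.5 UMIs per WT cell (3 to 15) and 6 per cKO cell (2 to 20). Cd79b, also used, had medians of 5 and 4. Ighm, the heavy chain of the receptor and no part of the rule, had a UMI in all 16 WT and all 130 cKO cells, with a median of 18.5 UMIs in the WT (6 to 44) and 15 in the cKO cells (2 to 46). Summed over cells, Ighm stood at 1849 CPM in WT members (1656 to 2059) and 2815 CPM in cKO members (2697 to 2938), a log2 ratio of 0.60 (0.44 to 0.78). Ighm was also found in 34.3% and 47.0% of haemoglobin-rich barcodes, at 79.0 and 261 CPM, so Ighm RNA outside the B lineage also differed between the libraries. Its source and what it adds to the ratio were not tested.

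The surrogate light chain genes were found in few cells of either library. Igll1, the lambda5 part, had 18 UMIs in 4 WT cells and 34 UMIs in 8 cKO cells. Vpreb1, the V-like part, had 16 UMIs in 2 WT cells, with 14 and 2 UMIs each, and 51 UMIs in 8 cKO cells, the highest with 13. In the cKO library 7 cells held both genes, so Vpreb1 and Igll1 were nearly always found in the same cells. Vpreb3, which is a relative and no part of the classical surrogate light chain, had a UMI in 13 WT and 122 cKO cells (93.8%). The rule's sum counted Vpreb3, Ebf1 and Cd79b beside Vpreb1 and Igll1, which is how cells without a surrogate light chain entered.

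Vpreb2, a near-identical copy of Vpreb1 that the rule did not use, was found in another set of cells than Vpreb1 in the WT library. It had 19 UMIs in the WT members, all in the 4 cells with Dntt, which held 4, 6, 2 and 7 UMIs. The same 4 cells had 0 UMIs of Vpreb1 and 0 of Igll1. In the cKO members Vpreb2 had 1 UMI, in a cell that also held 11 UMIs of Vpreb1 and 9 of Igll1. The 5 cKO cells with Dntt had 13, 0, 0, 8 and 0 UMIs of Vpreb1 and 4, 0, 0, 5 and 0 of Igll1. Reads from the copies can be assigned to either, so the split between Vpreb1 and Vpreb2 is uncertain.

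The windows of 250 bases before the gene starts are shown because they carry the likeness of the copies and because Vpreb1 and Igll1, close together on chromosome 16, were found in the same cells. They are from RefSeq, build GRCm38.p6, printed 5′ to 3′ on the gene's strand. Capitals mark CAGGTG, an E-box bound by the B-lineage factor E2A, or its reverse complement CACCTG.
Vpreb1 (chr16:16869256-16869505, - strand): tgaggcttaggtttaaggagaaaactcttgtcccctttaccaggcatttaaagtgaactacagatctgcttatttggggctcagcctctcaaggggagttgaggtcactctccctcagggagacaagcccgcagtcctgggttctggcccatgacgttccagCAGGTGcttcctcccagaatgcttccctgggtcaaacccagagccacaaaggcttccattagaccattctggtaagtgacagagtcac
Vpreb2 (chr16:17980315-17980564, + strand): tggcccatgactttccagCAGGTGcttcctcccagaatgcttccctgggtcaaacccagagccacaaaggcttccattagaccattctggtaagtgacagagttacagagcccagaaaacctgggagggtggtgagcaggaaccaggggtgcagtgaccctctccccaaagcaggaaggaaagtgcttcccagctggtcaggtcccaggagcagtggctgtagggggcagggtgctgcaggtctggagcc
Igll1 (chr16:16863986-16864235, - strand): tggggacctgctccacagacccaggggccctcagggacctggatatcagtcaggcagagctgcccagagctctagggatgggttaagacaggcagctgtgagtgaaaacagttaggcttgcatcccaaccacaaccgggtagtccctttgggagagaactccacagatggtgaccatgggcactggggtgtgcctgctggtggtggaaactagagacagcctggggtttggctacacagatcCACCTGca
Cd79a (chr7:24897247-24897496, + strand): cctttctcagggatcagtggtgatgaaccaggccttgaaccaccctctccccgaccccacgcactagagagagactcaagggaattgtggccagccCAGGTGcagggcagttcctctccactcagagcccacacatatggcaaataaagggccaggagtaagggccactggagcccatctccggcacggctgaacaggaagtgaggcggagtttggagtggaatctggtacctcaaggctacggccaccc

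The windows of Vpreb1 and Vpreb2 share an identical run of 91 bases, which starts 94 bases before the Vpreb1 start and 238 bases before the Vpreb2 start. The E-box lies inside that run in both. CAGGTG was searched on both strands and occurs in 17.2% of 32851 windows of this length. The window of Vpreb3 (chr10:75948050-75948299, + strand) holds 0 matches, as do those of Pax5, Dntt, Il7r and Ebf1. Those of Rag1 and Blnk hold 1 each. A motif of 10 bases bound by EBF1 occurs in 0.779% of windows and has 0 matches in any window named here. A match is a description of letters, and none of these data measure binding.

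The Cd79a-positive cells were next ordered by 2 cuts, at least 2 UMIs of Dntt and at least 10 UMIs of 10 cell cycle genes. In the cKO library 5 cells passed the Dntt cut, 2 of them also the cycle cut, 12 passed the cycle cut alone and 113 (86.9%, 79.9 to 92.2) passed neither. In the WT library these were 4, 0, 3 and 9 of 16. Dntt was thus found in 25% of WT members (7.27 to 52.4) and 3.85% of cKO members (1.26 to 8.75), and the intervals overlap. Thinned to 2000 UMIs it was 25% and 3.15%, against 0.448% and 0.116% in haemoglobin-rich barcodes. Leaving out the Dntt and cycling cells gave 9 WT and 113 cKO cells and a share ratio of 14.0 (7.12 to 31.4).

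Cells with Dntt held several marks of early stages, but not Kit, which had 0 UMIs in all 4 WT and all 5 cKO cells with Dntt. Dntt itself stood at 15, 13, 16 and 47 UMIs in the 4 WT cells and at 2, 18, 3, 14 and 6 in the 5 cKO cells. Flt3, a receptor of lymphoid progenitors, had a UMI in 3 of 4 WT and 4 of 5 cKO cells with Dntt, against 3 of 113 cKO cells with neither mark. Il7r, the receptor of the pro-B growth factor IL-7, had a UMI in 4 of 4 and 5 of 5, and Rag1 in 4 of 4 and 4 of 5. Igkc was low there, at 3 UMIs over the 4 WT cells and 14 over the 5 cKO cells, and Ms4a1 had 0 and 1. In the cKO library 2 of the 5 passed the cycle cut, with 47 and 190 cycle UMIs, and 2 held Vpreb1 with Igll1, so the 5 were not of 1 kind. These cells were deeper than the rest, with 10299 to 26259 UMIs (WT) and 4899 to 40628 UMIs (cKO).

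The 10 cycle genes set a few cells apart. In the cKO library 14 cells (10.8%, 6.01 to 17.4) held at least 10 UMIs, and 20 (15.4%) at least 5. None of the 130 held 8 to 12, which by the 3-count limit for a 0 allows up to 2.31%, whereas 2 of 16 WT cells did, with 8 and 9. The counts among the 12 without Dntt ran from 25 to 198, the highest in a barcode called a doublet with 56 UMIs of Hba-a1, and to 103 without it. Of the 14, 7 also held at least 2 UMIs of Vpreb1, Vpreb2 and Igll1 together, a combination found in large pre-B cells. These 7 included a cell with 14 UMIs of Dntt, so the combination was not confined to cells without that pro-B mark. Of all 130 cKO cells, 9 reached that sum. In the WT library 3 of 16 cells (18.8%, 4.05 to 45.6) passed the cycle cut, with 83, 114 and 59 UMIs, and 1 of them, with 14 UMIs of Vpreb1 and 10 of Igll1, also passed the surrogate light chain sum. Mki67, a protein of dividing nuclei, stood at a log2 ratio of 0.13 (-0.24 to 0.53) and Mcm5, a subunit of the replicative helicase, at -0.98 (-1.61 to -0.30), cKO over WT.

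**Figure D2:**
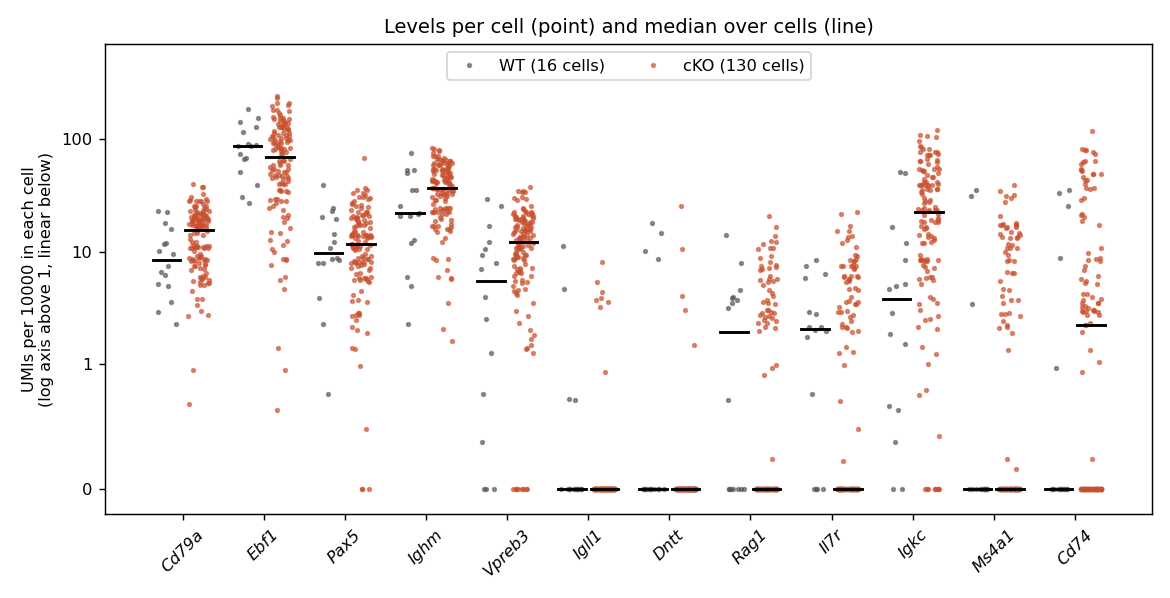
Each point is a cell, at its UMIs of a gene per 10000 of its own UMIs, on an axis that is logarithmic above 1 and linear below, for 16 WT and 130 cKO Cd79a-positive cells. Black lines are medians over cells. Cd79a, Ebf1, Pax5 and Ighm are spread over nearly all cells, Igll1 and Dntt over few, and Ms4a1 and Cd74 split the cells into those with and without UMIs.

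The 113 cKO cells with neither mark were split further by Ms4a1, a cut chosen after the values were seen. The 42 cells with at least 2 UMIs of Ms4a1 and the 71 cells under that cut had like depths, with medians of 3728.5 and 3530 UMIs. Rag1 or Rag2, the recombinase, had a UMI in 4 of the 42 and in 42 of the 71. Il7r had a UMI in 3 of the 42 and in 43 of the 71. The recombinase and the IL-7 receptor were thus found mainly in cells below the Ms4a1 cut.

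Igkc followed the opposite order, with a median of 21 UMIs in the 42 cells and 7 in the 71. Its summed level was 4466 and 2066 CPM. Cd74, the invariant chain of MHC class II, had a UMI in 37 of 42 and 26 of 71 cells. Bank1, a scaffold of B cell receptor signalling, had a UMI in 37 of 42 and 18 of 71. Ighd, the IgD heavy chain of later B cells, had a UMI in 14 and 14 cells. Fcer2a or Cr2, receptors of mature follicular and marginal zone B cells, had a UMI in 15 of 130 cKO and 2 of 16 WT cells. Over the same cells Ighd had a UMI in 32 cKO and 3 WT cells.

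Only 3 WT cells fell in the range with Ms4a1, with 14, 15 and 2 UMIs of it. They held 20, 8 and 3 UMIs of Igkc and 13, 17 and 15 UMIs of Cd74, and 0 of Rag1 and Il7r. The 6 WT cells with none of the 3 marks held Rag1 in 4 and Il7r in 5, and 31 UMIs of Igkc in all. In both libraries Flt3 was highest in the cells with Dntt, and Cd74 and Igkc in the cells with Ms4a1, on 3 to 6 WT cells a range. Rag1 differed, being highest in the Dntt cells of the WT library, at 490 CPM against 223 CPM in the cells with none of the marks, and in the cells with none of the marks of the cKO library, at 277 CPM against 185 CPM in its Dntt cells. How the ranges would compare with more WT cells was not tested.

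**Figure D3:**
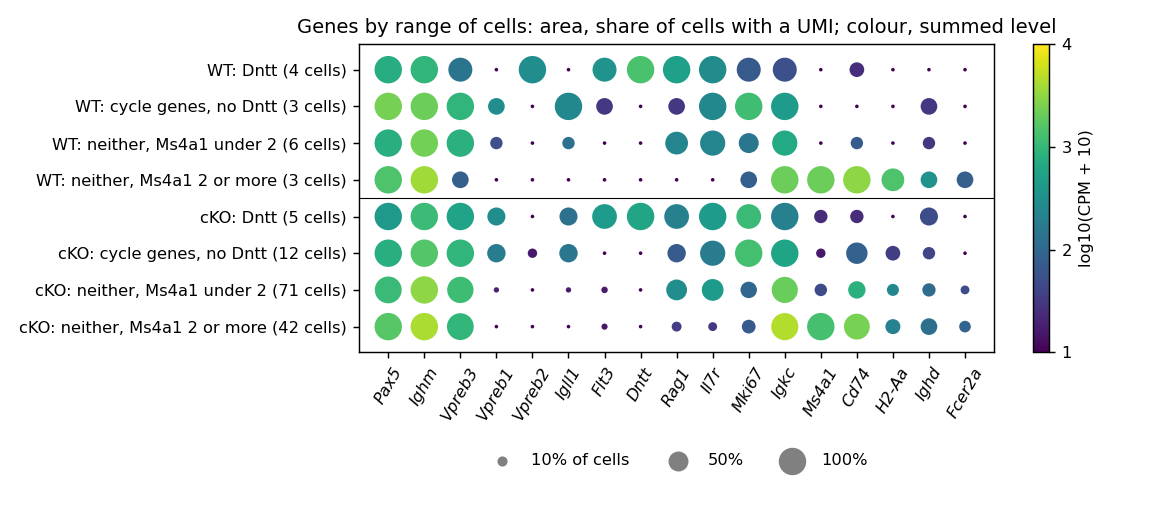
Genes are in columns and ranges of cells in rows, for the WT library above and the cKO library below the line. The area of a dot is the share of cells with a UMI and the colour the summed level as log10(CPM + 10). Flt3 is found mainly in the Dntt cells, and Cd74 and Igkc are highest in the cells with 2 or more UMIs of Ms4a1. Dntt, Mki67 and Ms4a1 follow the cuts that set the ranges.

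Light chain constant genes showed a wide difference between the libraries. Igkc had a median of 3.5 UMIs per WT cell (0 to 20) and 8.5 per cKO cell (0 to 50). Summed over members it stood at 476 CPM (WT, 381 to 588) and 2184 CPM (cKO, 2080 to 2293), a log2 ratio of 2.19 (1.88 to 2.53). Igkc RNA was also present outside B-lineage cells, at 239 CPM in WT and 742 CPM in cKO haemoglobin-rich barcodes. At 2000 UMIs per cell, at least 5 Igkc UMIs were left in 2 of 16 WT cells (12.5%) and 62 of 127 cKO cells (48.8%), against 0.821% and 0.347% of haemoglobin-rich barcodes. Haemoglobin-rich barcodes were deeper than the members, so thinning took away a larger part of their UMIs. The thinned shares therefore cannot tell how much Igkc RNA in members came from outside the cell. At full depth 37.5% of WT and 70.8% of cKO members held at least 5, against 1.73% and 11.7% of haemoglobin-rich barcodes. Igkc RNA outside the B lineage thus also differed between the libraries. What it adds to the ratio was not tested.

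Lambda genes also stood higher in the cKO sums. Iglc1 stood at 282 CPM (WT) and 578 CPM (cKO), and its log2 ratio was 1.02 (0.61 to 1.48). Of its 51 WT UMIs 39 lay in 1 cell, and the ratio was 0.09 without the Dntt and cycling cells. Iglc2 stood at 88.6 and 283 CPM, a ratio of 1.63 (0.94 to 2.51). Iglc3 had 3 UMIs in 3 WT cells and 198 UMIs in 66 cKO cells, a ratio of 3.77 (2.42 to 6.27). The lambda constant genes are near-identical, so their split is uncertain. By cuts chosen after the values were seen, at least 10 UMIs of Igkc and at least 5 of the Iglc genes, 35 cKO cells held kappa alone, 23 lambda alone, 27 both and 45 neither. Free light chain RNA and more than 1 cell in a droplet can both add to cells holding both chains, and their part was not tested.

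Variable segments were too sparse to read receptors. In the 130 cKO cells Ighv segments had 23 UMIs in 21 cells, Igkv 74 UMIs in 49 cells and Iglv 12 UMIs in 10 cells, and the WT members held 8, 3 and 0. The segment with the most UMIs was Igkv1-35, with 11 UMIs in 5 cells and 0 in all other cKO barcodes, 7 of them in 1 cell. Igkv1-110 had 10 UMIs in 8 cells and Igkv1-135 6 UMIs in 6. Iglv1 had 9 UMIs in 7 cells, and the leading heavy-chain segment Ighv4-1 had 4 UMIs in 3 cells. No segment was thus seen in more than 8 of 130 cells, at a depth where most cells had no segment UMI of a given chain.

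Genes were then compared between the libraries over summed UMIs, for the 3853 genes whose UMIs in WT and cKO members came to at least 50. Of these 493 stood at least 2-fold apart (12.8%), 316 higher in the cKO cells (8.2%) and 177 lower (4.59%), and the median log2 ratio was 0.02. With 5 instead of 0.5 added to each sum, 352 genes were 2-fold apart and the higher share among them was 28.4% in place of 64.1%, so the balance of directions among genes of low count rests on that choice. The 5 deepest of the 16 WT cells carried 58.0% of the WT UMIs, against 24.7% for the 5 deepest cKO cells. The WT sums therefore lean on few cells.

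Genes of the small pre-B and immature stages stood higher in the cKO cells. Of 17 genes measured 11 were at least 2-fold higher and 0 at least 2-fold lower, against 8.2% and 4.59% of all genes, and their median log2 ratio was 1.02. Beside the light chains, Cd74 stood at 271 and 992 CPM, a ratio of 1.86 (1.45 to 2.32), and Cd2, an adhesion receptor that appears on small pre-B cells, at 2.19 (0.79 to 4.71) on 3 WT UMIs. The class II genes H2-Ab1 and H2-Eb1 stood at 1.47 (0.61 to 2.63) and 1.76 (0.69 to 3.35). Ms4a1 stood at 1.06 (0.55 to 1.67), and Il2ra, the CD25 of small pre-B cells, at 0.83 (-0.22 to 2.29). The exception was Irf4, a factor that promotes light chain recombination, at -0.52 (-0.99 to 0.00).

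Part of that list's difference moved with the mix of ranges. Without the Dntt and cycling cells, which leaves 9 WT and 113 cKO cells, its median was 0.37, and Ms4a1 and Ighd stood at 0.11 and 0.09. Igkc stood at 1.62 in place of 2.19 and Iglc3 at 2.79 in place of 3.77, both lower but above 2-fold in these sums. With every cell weighed alike the median was 0.61. All 5 measured mature B genes were at least 2-fold higher over all cells, against 8.2% of all genes, with a median of 1.16. Among them were Fcmr, the IgM Fc receptor, at 1.16 (0.24 to 2.41) and Tnfrsf13c, the BAFF receptor, at 1.25 (0.34 to 2.50). The median of the mature B genes was 0.18 without the Dntt and cycling cells. Of the 63985 UMIs of the 9 WT cells then left, 26367 lay in the deepest barcode, with 4 of their 62 Igkc UMIs. All ratios given without the Dntt and cycling cells lean on that barcode, and what they would be without it was not tested.

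Genes of the pro-B stage stood lower in the cKO cells. Of 10 measured, 4 were at least 2-fold lower and 0 higher, against 4.59% and 8.2% of all genes. The median log2 ratio was -0.83. Without the Dntt and cycling cells the median was -0.98, but Dntt, which is counted in it, then had 0 UMIs in both libraries. The value of Dntt there came from the added 0.5 alone, so 1 of the 10 values behind that median is no measurement. Dntt stood at 504 CPM in WT cells (406 to 619) and 57.1 CPM in cKO cells (41.3 to 76.9), a ratio of -3.13 (-3.70 to -2.60), and all its UMIs lay in the 4 and 5 cells named above. Erg, a progenitor transcription factor, stood at -3.00 (-3.72 to -2.32), with 44 of 54 WT UMIs in the same 4 cells. Igll1, used by the rule, stood at -1.16 (-2.01 to -0.23) and Lef1, a pro-B factor of the Wnt pathway, at -1.0 (-1.43 to -0.55). Of the WT UMIs of Lef1, 35 lay in 1 cycling cell. Il7r was near even at 0.17 (-0.31 to 0.71) and Sox4, a survival factor of early B cells, was higher at 0.65 (0.23 to 1.13).

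Among recombination genes Dntt alone stood 2-fold apart. Of 9 measured, 1 was lower and 0 higher, against 4.59% and 8.2% of all genes, with a median of -0.20. Rag1 had 45 UMIs in 9 WT cells and 116 UMIs in 52 cKO cells, a log2 ratio of -0.70 (-1.20 to -0.16), and 0.00 without the Dntt and cycling cells. Rag2 had 5 and 23 UMIs, in 4 and 18 cells. At 2000 UMIs per cell, Rag1 or Rag2 was left in 7 of 16 WT cells (43.8%, 19.8 to 70.1) and in 36 of 127 cKO cells (28.3%, 20.7 to 37.0). These intervals overlap, while the interval of the summed Rag1 ratio lies below 0.

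**Figure D4:**
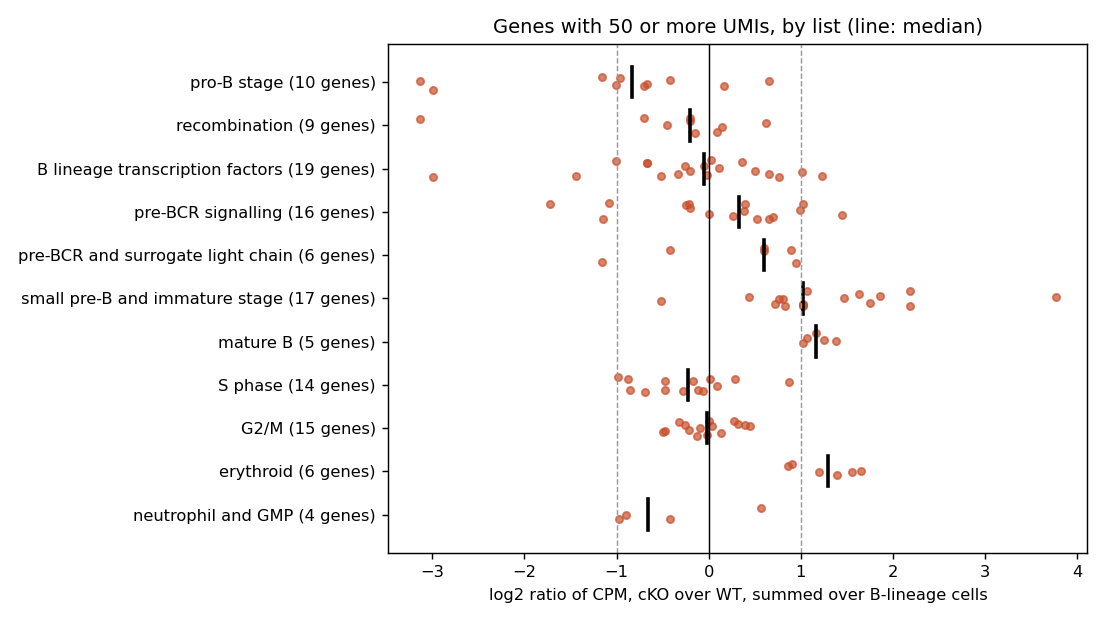
Each point is a gene with at least 50 UMIs, at its log2 ratio of CPM, cKO over WT, summed over Cd79a-positive cells; black lines are list medians and dashed lines mark 2-fold. The pro-B list has its median at -0.83, the small pre-B and immature list at 1.02 and the mature B list at 1.16.

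B-lineage transcription factors did not move as a list. Of 19 measured, 2 were at least 2-fold higher and 3 lower, against 8.2% and 4.59% of all genes, with a median of -0.05. The core factors lay close to even, with Pax5 at 1235 and 1070 CPM and a log2 ratio of -0.21 (-0.42 to 0.01), Bach2, a repressor that guards the B program, at -0.02 (-0.12 to 0.07), Foxo1, an activator of the Rag genes, at -0.05 (-0.40 to 0.33) and Ikzf1 at 0.11 (-0.11 to 0.35). Ebf1, used by the rule, stood at -0.34 (-0.42 to -0.24). The factors of pre-B cells Ikzf3, at 1.23 (0.84 to 1.67), and Irf8, at 1.01 (0.35 to 1.81), were higher. Erg, Runx1, at -1.45 (-1.61 to -1.28), and Lef1 were the 3 lower ones, all also active in earlier progenitors. Of the WT UMIs of Runx1, 251 lay in the 4 cells with Dntt and 106 in 1 other cell. Of those of Lef1, 35 lay in 1 cycling cell, so these sums rest on few WT cells.

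Pre-BCR signalling genes stood on both sides of even. Of 16 measured, 2 were 2-fold higher and 3 lower, against 8.2% and 4.59% of all genes, with a median of 0.33. The higher ones were Cd72, an inhibitory co-receptor, at 1.45 (0.82 to 2.22) and Cd22, an inhibitory lectin, at 1.02 (-0.18 to 2.83), on 5 WT UMIs and with an interval that holds 0. The lower ones were the kinase Fyn at -1.72 (-2.34 to -1.09), the lipid phosphatase Inpp5d at -1.15 (-1.41 to -0.88) and the kinase subunit Pik3cd at -1.08 (-1.60 to -0.53). Without the Dntt and cycling cells Inpp5d stood at -0.15 and Pik3cd at 1.77, the latter on only 2 WT UMIs. The sign of Pik3cd thus moved with those cells, but on too few WT UMIs to rest on. The kinase Syk, nearest the receptor, stood at 0.69 (0.45 to 0.96), Lyn at 0.39 (0.14 to 0.65), and the adaptor Blnk at -0.21 (-0.46 to 0.05).

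Cell cycle, IL-7 and ribosome biogenesis genes held 0 members 2-fold apart, against 12.8% of all genes. Medians were -0.22 over 14 S phase genes, -0.02 over 15 G2/M genes, 0.01 over 8 IL-7 signalling genes and -0.13 over 15 ribosome biogenesis genes, to which Nat10 belongs by function. In the last, Npm1, a nucleolar chaperone, stood at -0.13 (-0.35 to 0.11) and Ncl, nucleolin, at -0.23 (-0.49 to 0.03). Ccnd3, the D cyclin of pre-B cells, stood at -0.08 (-0.33 to 0.18), and the survival gene Bcl2 at -0.75 (-1.39 to -0.05). Of the Bcl2 UMIs, 36 in the cKO library lay in 1 cell with Dntt and 13 in the WT library in 1 cell. In cells with neither Dntt nor the cycle mark Bcl2 stood at 375 CPM (WT) and 58.4 CPM (cKO), so its ratio rests on few cells. Adhesion genes held 1 higher and 1 lower of 6, against 8.2% and 4.59% of all genes. The higher one was the tetraspanin Cd9, at 3.18 (1.6 to 6.56), with 2 WT UMIs and 94 UMIs in 13 cKO cells, 67 of them in 1 barcode. The lower one was Itga4, an integrin that anchors cells to stroma, at -1.06 (-1.38 to -0.73), while the chemokine receptor Cxcr4 stood at -0.01 (-0.97 to 1.20).

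Genes of other cell types were present at low levels and also differed. All 6 measured erythroid genes were higher in the cKO cells, 4 of them at least 2-fold, against 8.2% of all genes. Their median was 1.29. Their summed level was 803 CPM in WT members and 1949 CPM in cKO members, from 4.57 to 20.5 UMIs per 10000 over WT cells and 0 to 352 over cKO cells. The medians over cells were close, at 10.2 and 11.5 UMIs per 10000, so the sums differed more than the middle cell did. In 2 cKO members and 0 WT members haemoglobin genes passed 1% of UMIs. In the other kept barcodes that list was at 8782 CPM (WT) and 6556 CPM (cKO), in the opposite order. Neutrophil and granulocyte-monocyte progenitor genes had a median of -0.66 over 4 genes, at 609 and 410 CPM in members and 7756 and 4976 CPM in the other barcodes. Mpo, a granule enzyme, had a UMI in all 16 WT and in 66 cKO cells, and Ltf, Fcnb and Lcn2 were at 0 in members of both libraries. The part these RNAs have in any ratio above was not tested.

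Markers of T, plasma and macrophage cells were near 0. Of 14 T and natural killer genes 12 were at 0 in the WT and 4 in the cKO members, with 27.7 and 101 CPM in sum. Of 11 plasma cell genes 5 and 2 were at 0, and Mzb1 and Prdm1 together had 1 UMI in each library. The complement genes C1qa and C1qb were at 0 in both. Of 12 plasmacytoid dendritic genes 4 and 2 were at 0, and the rule limited Siglech. Interferon genes had a median of 0.17 over 5 measured, with Isg15, a ubiquitin-like modifier, at 2.75 (1.38 to 5.27), but 45 of its 98 cKO UMIs lay in 1 barcode.

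The highest ratios rested on few barcodes. Clu, Ltbp1, Gucy1b1, Timp3, Cald1, Cdc42ep5, Lilrb4b and Clec1b had 0 UMIs in the WT members and 55 to 270 in the cKO members, in 2 to 6 cells each. Against a floor of 3 counts over the WT members, Clu was at least 21.6-fold higher and Clec1b at least 4.40-fold higher. The deepest cKO member, with 62641 UMIs, held 100 of 132 Ltbp1 UMIs and 53 of 55 Clec1b UMIs, beside 142 UMIs of Pf4, 69 of Itga2b and 26 of Gata1, genes of megakaryocytes. It also held 6 UMIs of Ebf1 and 3 of Pax5, and it was not called a doublet. Another cKO barcode, with 43834 UMIs, held 103 UMIs of Car2 and 56 of Hba-a1 and was called one. Whether they hold more than 1 cell was not tested further.

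Without barcodes over 20000 UMIs, a limit chosen after the values were seen, 13 WT and 126 cKO cells were left and the share ratio was 11.6 (6.52 to 22.3). Clu then still had 231 UMIs in 5 cells, at least 14.1-fold higher, and Pf4 had 101 UMIs in 13 cells against 1 in the WT. Iglc3 was then the only light chain gene among the 8 highest, at 3.84 (2.28 to 7.21). Of 2898 genes 348 were 2-fold apart. Erg, Ern1 and Dntt were among the 8 lowest with and without these barcodes.

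The lowest ratios rested on the 4 WT cells with Dntt. Myl10, a myosin light chain, had 52 UMIs in the WT members, all in those 4 cells, and 1 UMI in the cKO members, a log2 ratio of -7.19 (-13.1 to -5.22). The 5 cKO cells with Dntt thus held 1 UMI of Myl10 among them. Trio, a guanine nucleotide exchange factor, had 37 of 42 WT UMIs in the same 4 cells, Ern1, the sensor of the unfolded protein response, 41 of 48, and Cacnb2, a calcium channel subunit, 45 of 50. Meis1, a stem cell homeobox factor, differed from these, with 26 of 46 WT UMIs in the deepest WT member, a barcode of 26367 UMIs with 4 UMIs of Kit and 6 of Itga2b.

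Against the other cKO barcodes, the genes that set the members most apart were of the B lineage, as the choice of members brings with it. Among genes with at least 100 UMIs the 20 highest ratios included Klhl14, Pax5, Vpreb3, Ms4a1, Rag1, Spib, Bank1, Blk, Ebf1 and Blnk. Klhl14, a ubiquitin ligase adaptor, had a UMI in 61 of 130 cells, at 328 CPM against 0.128 CPM elsewhere. Chst3, a sulfotransferase, was found in 104 of 130 cells and Akap12, a kinase scaffold, in 102. Less familiar genes on the list were Agbl1, Gfra1, Cpm, Tmem163 and Tmem108, found in 60 to 102 cells. Rag1 was at 154 CPM in members and 0.128 CPM elsewhere, and at 1.18 CPM in the barcodes chosen by Il7r, Flt3 and Dntt.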

How the data were processed

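UMI counts per gene and barcode, as deposited by the authors in 1 matrix of 56748 genes per library, were used unchanged. Per the submitters' processing notes, reads were processed with Cell Ranger 7.1.0 and genome build mm39. The sources used here do not say how cells were called. In all, 15848 WT barcodes held 288303275 UMIs and 13479 cKO barcodes 271499717.

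Members were chosen by the rule in the text. The members, gene lists and cuts were chosen with earlier results of these data known. UMIs were summed over members, scaled to CPM, and compared as log2 ratios with 0.5 added to each sum, over genes with at least 50 UMIs. Intervals of 95% were exact (binomial for shares, Poisson for sums, conditional binomial for ratios; scipy 1.17.1). A count of 0 was given an upper limit of 3 counts of the total. Shares were repeated after thinning to 2000 UMIs. Doublets were called with Scrublet in scanpy 1.11.5 at an expected 8% and kept. With 1 library per genotype, called means at least 2-fold apart. The ratio step was tested on simulated data.

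Named genes are those of 25 lists (303 genes), the 20 highest cKO members over other barcodes, the 8 highest and 8 lowest ratios, and up to 6 heavy and 6 light variable segments. Rankings leave out unnamed gene models, genes of the mitochondrion and a short list of sex-linked genes such as Xist, but not every gene of the sex chromosomes. Some genes of the lists, and a planned share that used one of them, are not reported here. Alternatives covered filters, thresholds, thinning, doublets, scaling and the added constant. Promoter windows came from RefSeq, build GRCm38.p6, and no coordinates were carried between builds.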

Additional observations from a re-analysis of the deposited data

How the results depend on the processing

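The share ratio of 9.06 stayed above 1 in 15 alternatives and inside its counting interval in 14. Without the Siglech and Jchain limits it was 4.30. Of these, leaving out barcodes over 20000 UMIs (11.6) and leaving out cells with Dntt or the cycle genes (14.0) were added after seeing the data. The share of cKO cells with Pax5 was 91.5% at 2 or more UMIs and 89.0% after thinning, and the alternatives on Pax5 were likewise added later. The share passing the cycle cut was 29.9% after thinning with a cut of 2 UMIs, which is a looser cut. The number of genes 2-fold apart was 193 with a minimum of 100 UMIs and 1267 with a minimum of 20, where fewer and more genes were compared. The share of cKO cells with Dntt ran from 2.31% to 3.91%. No paired analysis was possible because each genotype has 1 library and the labels give no replicate numbers. The 16 WT cells limit every WT share: a mark in 0 of 16 cells allows up to 18.8% by the 3-count limit. Shallow cKO cells, with a median of 3734 UMIs, limit what counts as absent in a cell.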
